A study of Mus musculus with 15 samples.

Results

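Glycolysis splits glucose into pyruvate in the cytosol, and each of its steps is served by a small family of isoenzymes. Pyruvate is then reduced to lactate by lactate dehydrogenase or carried into the mitochondrion and oxidised by the pyruvate dehydrogenase complex, which the pyruvate dehydrogenase kinases switch off. In the outer eye this traffic is divided between cells: photoreceptors ferment much of the glucose that reaches them, and the retinal pigment epithelium (RPE), which passes glucose from the choroid to them, can use the lactate they return. Several steps have a form typical of skeletal muscle and others found in most tissues, so that the balance of isoforms in a dissected tissue also carries information on the cells in it.

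The 31 genes described here are glucose carriers, the enzymes from hexokinase to lactate dehydrogenase, the regulators PFKFB, the lactate carrier Slc16a3, and the genes of pyruvate entry, oxidation and its kinases. They were taken by symbol from the table of read counts per gene, where all 31 of 31 were found among 40481 genes, and all 31 passed the filter on low counts that left 17991 genes. A further 8 muscle-type genes of glucose metabolism, among them Eno3, Pgam2 and Slc2a4, were set beside them to compare muscle-type with more general isoforms. RNA was sequenced from the RPE/choroid complex, the pigment epithelium with the vascular layer under it, of 15 mouse samples. The 8 INK-ATTAC libraries come from mice with floxed alleles of Abca1 and Abcg1 (flox/flox), LysM-Cre and the INK-ATTAC transgene, and the 7 control libraries from mice with the same floxed alleles and LysM-Cre but without INK-ATTAC. The floxed alleles concern 2 cholesterol efflux transporters, and LysM-Cre acts in cells that use the Lyz2 promoter, chiefly myeloid cells. Both groups share this background. The model is used for its drusenoid deposits, whose extent in either group was not measured here. INK-ATTAC puts an FKBP-caspase 8 fusion under the p16Ink4a promoter, and the dimerizer AP20187, with which every library of both groups is labelled (i.p), sets off apoptosis in cells that use that promoter. For the INK-ATTAC mice the submitters give 3 months of dosing. Age and the number of animals behind each library are not stated in the sources used here, so the p-values describe spread among libraries, part of which may be technical.

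Each library held between 39121503 and 65065950 counts, and the least abundant of the 31 genes, Slc2a3, still had at least 40 counts in every library. All 16 of 16 RPE markers were detected, at a mean level of 10.04 to 10.29 log2 CPM in INK-ATTAC libraries and 10.10 to 10.35 in controls. CPM here is the count scaled to a common library size after TMM and serves to compare libraries for 1 gene, and TPM, which also divides by transcript length, serves to compare levels between genes. Endothelial markers lay between 4.00 and 5.48 log2 CPM in INK-ATTAC libraries and between 4.18 and 5.54 in controls. Myeloid markers varied less, from 6.17 to 6.54 in INK-ATTAC libraries and from 6.24 to 6.64 in controls. Markers of other tissues were present too, and some varied strongly. Rod markers lay between 2.65 and 6.02 log2 CPM in INK-ATTAC libraries and between 4.39 and 6.14 in controls, and lens markers between -1.25 and 6.12 in INK-ATTAC libraries and between -1.91 and 3.28 in controls. Skeletal muscle markers are given with the isoforms below, since they moved with them. In bulk tissue, fewer cells of a type and less RNA per cell cannot be told apart.

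The isoform pairs on which the comparison turns are near relatives but not copies. The first 90 coding bases of the muscle enolase Eno3 (chr11:70657202-70662513, plus strand, GRCm38) and of the general enolase Eno1 (chr4:150236721-150248879, plus strand) are shown because their reads decide the enolase balance, and capitals mark the 28 positions at which they differ. Coding sequences are from GENCODE M21 transcripts.
Eno3: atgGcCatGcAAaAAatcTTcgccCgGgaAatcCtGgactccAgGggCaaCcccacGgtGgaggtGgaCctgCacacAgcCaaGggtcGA
Eno1: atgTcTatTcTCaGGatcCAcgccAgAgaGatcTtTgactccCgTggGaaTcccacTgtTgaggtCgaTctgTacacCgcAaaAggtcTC
The same is shown for the muscle phosphoglycerate mutase Pgam2 (chr11:5801640-5803733, minus strand, GRCm38) and the general form Pgam1 (chr19:41911923-41918660, plus strand), which also differ at 28 of the first 90 positions.
Pgam2: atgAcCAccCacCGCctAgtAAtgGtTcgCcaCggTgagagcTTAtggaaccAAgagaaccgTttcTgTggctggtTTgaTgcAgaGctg
Pgam1: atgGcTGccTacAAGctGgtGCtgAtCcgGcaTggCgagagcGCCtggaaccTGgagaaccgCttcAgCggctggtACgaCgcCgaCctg
Over their whole coding sequences Eno3 and Eno1 are 76.7% identical with no identical run above 20 bases, and Pgam2 and Pgam1 are 74.7% identical with no run above 28 bases. The other pairs compared below share between 67.8% (Pdk4 and Pdk2) and 75.9% (Aldoa and Aldoc) of their aligned coding bases, so reads of most lengths separate them. This is not so for every gene of the group. Eno1 and its near copy Eno1b are 99.4% identical, with 1 identical stretch of 725 bases, and Aldoa shares 93.9% with Aldoart1 and 91.8% with Aldoart2, both aldolase copies known from testis. The start of the longest annotated coding sequence of Aldoa (chr7:126795234-126800751, minus strand, GRCm38), aligned with that of Aldoart1 on chromosome 4, differs at 7 of 90 positions, again in capitals.
Aldoa: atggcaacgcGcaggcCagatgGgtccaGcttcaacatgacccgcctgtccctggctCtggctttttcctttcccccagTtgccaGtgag
Aldoart1: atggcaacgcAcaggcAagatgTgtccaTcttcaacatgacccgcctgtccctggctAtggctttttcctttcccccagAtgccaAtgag
How the authors counted reads that match several places is not given in the sources used here, so the values of Eno1 and Aldoa are uncertain to that extent. Eno1b was counted at a median of 24.3 CPM in INK-ATTAC libraries and 21.97 CPM in controls, and Aldoart1 at 27.5 CPM in INK-ATTAC libraries and 23.9 CPM in controls. Per length they had means of 24.2 TPM for Eno1b and 22.99 TPM for Aldoart1 over all 15 libraries, against 1137 TPM for Eno1 and 4024 TPM for Aldoa.

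The promoters of both muscle-type genes and of 1 general partner are shown because Eno3 and Pgam2 passed a test for a slope on skeletal muscle markers, described below, which Pgam1 did not pass. Each window is the RefSeq promoter of 300 bases on GRCm38.p6, read in the direction of the gene, and lies at chr11:70656926-70657225 on the plus strand for Eno3, at chr11:5803747-5804046 on the minus strand for Pgam2 and at chr19:41911621-41911920 on the plus strand for Pgam1. Capitals mark the E-box letters CANNTG, the core ACGTG of the hypoxia response element, and the MEF2 motif of muscle genes, each searched on both strands.
Eno3: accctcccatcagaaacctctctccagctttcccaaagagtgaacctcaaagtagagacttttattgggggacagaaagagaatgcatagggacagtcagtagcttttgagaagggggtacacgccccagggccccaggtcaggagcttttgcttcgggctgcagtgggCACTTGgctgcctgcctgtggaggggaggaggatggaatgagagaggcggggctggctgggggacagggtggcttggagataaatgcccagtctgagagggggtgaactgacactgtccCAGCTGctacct
Pgam2: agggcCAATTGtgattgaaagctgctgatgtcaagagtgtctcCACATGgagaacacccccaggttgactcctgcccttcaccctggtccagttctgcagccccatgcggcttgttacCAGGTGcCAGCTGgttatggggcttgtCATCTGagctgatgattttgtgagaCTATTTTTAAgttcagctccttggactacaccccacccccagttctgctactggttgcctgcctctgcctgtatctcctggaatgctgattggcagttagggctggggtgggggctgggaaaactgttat
Pgam1: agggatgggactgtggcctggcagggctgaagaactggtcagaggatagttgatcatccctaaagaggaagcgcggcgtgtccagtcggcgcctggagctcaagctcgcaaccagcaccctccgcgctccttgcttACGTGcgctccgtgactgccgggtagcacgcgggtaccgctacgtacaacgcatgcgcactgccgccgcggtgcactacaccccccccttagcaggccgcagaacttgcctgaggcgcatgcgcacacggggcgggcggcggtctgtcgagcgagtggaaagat
The Pgam2 window held 5 E-boxes and 1 MEF2 motif, the Eno3 window 2 E-boxes and no MEF2 motif, and the Pgam1 window 1 ACGTG and no E-box. Of the 31 genes 30 had at least 1 such window and Slc2a3 had none in the table. ACGTG was found in 44.7% of their 47 windows and in 19.6% of all 32851 windows, CANNTG in 66% of theirs and 72.3% of all, and the MEF2 motif in 0 of 47 windows and 3.2% of all. These are letter matches only.

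The group was abundant and its order of levels steep. Summed over the 31 genes, the level was 11326 ± 722 TPM in INK-ATTAC libraries (SD, n = 8) and 10941 ± 1000 TPM in controls (SD, n = 7). Aldoa, which splits fructose bisphosphate, led with a mean of 4024 TPM over all 15 libraries. It was followed by Ldhb, the heart-type lactate dehydrogenase subunit, at 1591 TPM, by Eno1 at 1137 TPM and by Gapdh, which makes the first NADH of the pathway, at 1094 TPM. Pkm, the last step to pyruvate, had 833 TPM and Slc2a1, the glucose carrier of the RPE and of blood-tissue barriers, 402 TPM. At the other end were Pfkfb2 at 2.65 and Pfkfb3 at 2.63 TPM, kinases that make the activator of phosphofructokinase, the lactate exporter Slc16a3 at 1.88 TPM, and the neuronal glucose carrier Slc2a3 at 0.938 TPM. The lactate carrier typical of the RPE is a gene outside the 31, Slc16a8, and it made up 81.8 ± 2.39% in INK-ATTAC libraries (SD, n = 8) and 78.9 ± 2.73% in controls (SD, n = 7) of the summed TPM of 4 lactate carriers. Slc16a3 made up 0.226 ± 0.0726% in INK-ATTAC libraries (SD, n = 8) and 0.218 ± 0.0652% in controls (SD, n = 7).

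**Figure D1:**
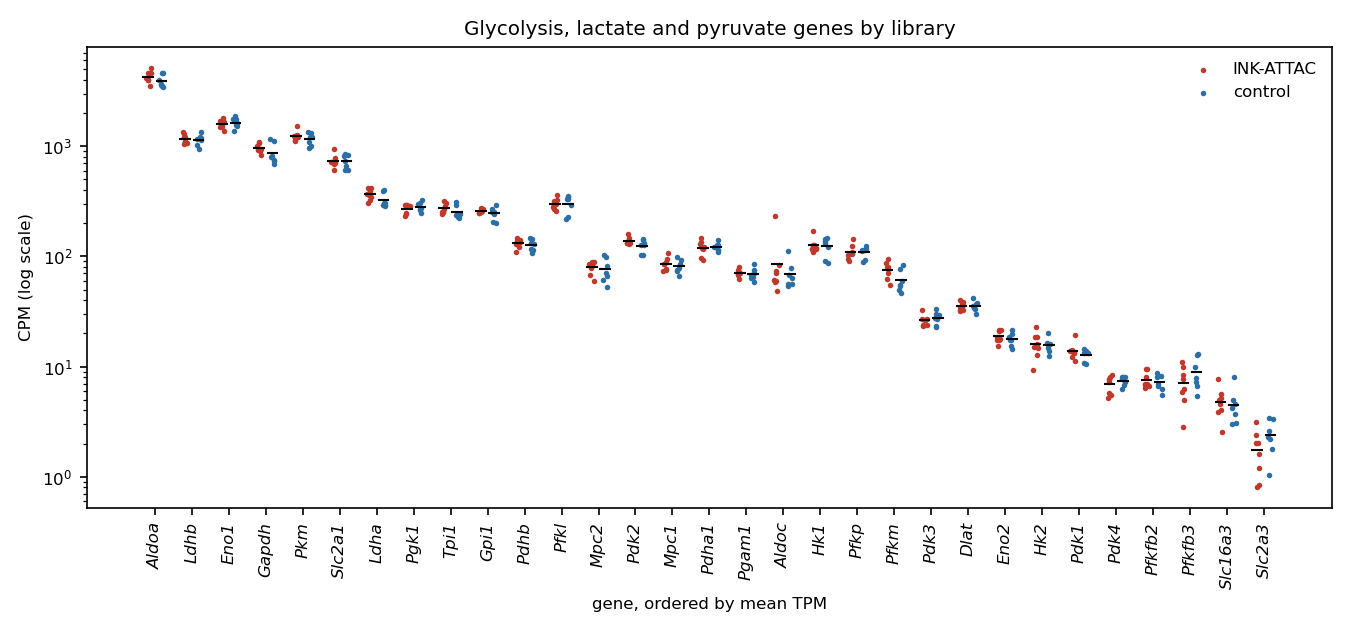
CPM on a log scale of the 31 genes in each library, ordered by mean TPM, with INK-ATTAC libraries in red, controls in blue and a black bar at each mean. The ranges of INK-ATTAC and control libraries overlap for every gene.

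Within families, 1 form usually held most of the transcripts per length. Hk1, the hexokinase bound to mitochondria in most tissues, made up 90.04 ± 2.49% in INK-ATTAC libraries (SD, n = 8) and 89.8 ± 2.63% in controls (SD, n = 7) of the sum with the insulin-responsive Hk2. Per length Hk2 had a mean of 5.06 TPM over all 15 libraries, and outside that sum Hkdc1 had 6.32 TPM and the myeloid hexokinase Hk3 5.31 TPM. Pfkl, the liver-type phosphofructokinase subunit, held 61.2 ± 2.89% in INK-ATTAC libraries (SD, n = 8) and 63.7 ± 3.201% in controls (SD, n = 7), Pfkm, the muscle type, 19.4 ± 3.65% in INK-ATTAC libraries (SD, n = 8) and 16.1 ± 2.84% in controls (SD, n = 7), and Pfkp, the platelet type, 19.4 ± 1.395% in INK-ATTAC libraries (SD, n = 8) and 20.2 ± 1.07% in controls (SD, n = 7). Ldhb made up 82.3 ± 1.29% in INK-ATTAC libraries (SD, n = 8) and 83.7 ± 1.51% in controls (SD, n = 7) of the sum with Ldha, the muscle-type subunit. Pdk2 was the main pyruvate dehydrogenase kinase, with 78.2 ± 2.08% in INK-ATTAC libraries (SD, n = 8) and 75.7 ± 3.84% in controls (SD, n = 7). Among the muscle-type forms, Aldoa held 98.8 ± 0.871% in INK-ATTAC libraries (SD, n = 8) and 98.9 ± 0.26% in controls (SD, n = 7) of the sum with Aldoc. Pgam2 held 69.98 ± 12.2% in INK-ATTAC libraries (SD, n = 8) and 53.3 ± 15.3% in controls (SD, n = 7) of phosphoglycerate mutase, and in 1 library its share was as low as 28.3% and in another as high as 82.0%.

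The comparison of INK-ATTAC with control libraries addresses whether these genes differ after a treatment meant to ablate p16Ink4a-expressing cells, whose loss was not measured here. No gene of the 31 was called, and none of all 17991 genes was, in edgeR's quasi-likelihood test with Benjamini-Hochberg adjustment at 0.05 (0% of genes called, lowest adjusted p 0.515 over all genes, adjusted p = 1.00 for each of the 31). At an unadjusted p under 0.05 there was 1 of 31 higher and 0 lower, where 2.2% of all genes were higher and 1.94% lower, together 745 genes or 4.14%. DESeq2 called 6 genes and limma-voom with quality weights 2, none of them among the 31. The log2 fold change of INK-ATTAC over control was above 0 for 23 of the 31, against 49.8% of all genes, with a median of 0.043 for the 31 and of -0.00097 for all genes. The median of the 31 was 0.0095 with skeletal muscle marker level in the fit and -0.011 in the low-Xist libraries alone. The ranges of the groups overlapped for all 31 genes, as they did for all but 0.0222% of genes tested. The count of 23 fell to 19 when skeletal muscle marker level was added to the fit. In the libraries with low Xist alone (4 INK-ATTAC and 3 control) 15 of 31 were above 0, and in those with high Xist alone (4 INK-ATTAC and 4 control) 18 of 31.

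**Figure D2:**
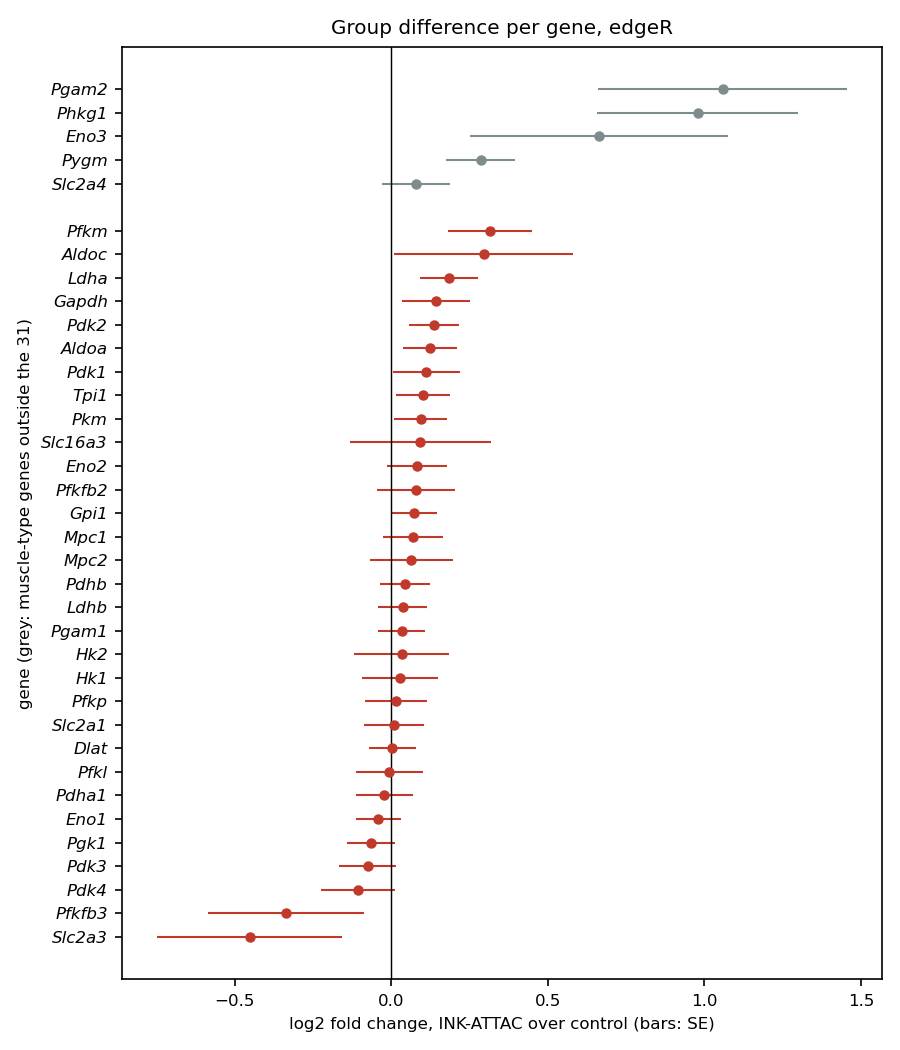
The log2 fold change of INK-ATTAC over control libraries in edgeR, with bars of 1 SE, for the 31 genes in red and for 5 muscle-type genes outside them in grey. Pfkm at 0.32 is the highest of the 31 and Slc2a3 at -0.45 the lowest, and Pgam2 at 1.06 and Phkg1 at 0.98 lie outside their range.

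Pfkm had the lowest p of the 31. Its libraries measured 55.3 to 95.3 CPM (median 77.8) in INK-ATTAC libraries, against 46.9 to 84.2 CPM (median 55.3) in controls. All 8 INK-ATTAC libraries lay at or above the control median, yet the highest control lay inside the INK-ATTAC range. The log2 fold change was 0.32 (SE 0.13, unadjusted p = 0.0305), and with skeletal muscle level in the fit it was 0.11 (SE 0.11, unadjusted p = 0.347). The related Pfkl ran between 256 and 357 CPM in INK-ATTAC libraries, with a median of 293, and between 220.0 and 353 CPM in controls, with a median of 328, and its fold change was -0.0065 (SE 0.11). Pfkp had a lowest, median and highest value of 90.4, 106 and 144 CPM in INK-ATTAC libraries, against 88.2, 114 and 124 CPM in controls, a fold change of 0.016 (SE 0.098). Neither Pfkl nor Pfkp departed from its control level by more than its SE.

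At the entry of the pathway, Slc2a1 measured 611 to 941 CPM (median 713) in INK-ATTAC libraries, against 608 to 853 CPM (median 727) in controls, and its log2 fold change was 0.0095 (SE 0.095). Slc2a3 ran between 0.814 and 3.12 CPM in INK-ATTAC libraries, with a median of 1.798, and between 1.05 and 3.43 CPM in controls, with a median of 2.305. Only 2 of 8 INK-ATTAC libraries exceeded the control median of Slc2a3, but the ranges overlapped almost wholly and the fold change was -0.45 (SE 0.30, unadjusted p = 0.145). Hk1 had a lowest, median and highest value of 110.2, 118 and 170.3 CPM in INK-ATTAC libraries, against 86.3, 133 and 145 CPM in controls, with INK-ATTAC 3 alone above the control median, and a fold change of 0.027 (SE 0.12). Hk2 measured 9.26 to 22.98 CPM (median 15.6) in INK-ATTAC libraries, against 12.6 to 19.99 CPM (median 15.7) in controls, a fold change of 0.033 (SE 0.15). The insulin-responsive carrier Slc2a4, the muscle and fat partner of Slc2a1 and not of the 31, ran between 14.7 and 20.3 CPM in INK-ATTAC libraries, with a median of 18.02, and between 13.4 and 22.1 CPM in controls, with a median of 16.2, a fold change of 0.079 (SE 0.11).

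Among the middle enzymes, Aldoa measured 3543 to 5133 CPM (median 4148) in INK-ATTAC libraries, against 3421 to 4615 CPM (median 3663) in controls, a log2 fold change of 0.12 (SE 0.087, unadjusted p = 0.168). Aldoc, the aldolase of brain and of some retinal neurons, ran between 48.7 and 230.3 CPM in INK-ATTAC libraries, with a median of 65.7, and between 54.2 and 112 CPM in controls, with a median of 63.98. Its highest value was INK-ATTAC 3, at 230.3 CPM, and its fold change of 0.30 (SE 0.29) turned to -0.10 without that library. Gapdh had a lowest, median and highest value of 833, 931 and 1084 CPM in INK-ATTAC libraries, against 692, 796 and 1168 CPM in controls. All 8 INK-ATTAC libraries of Gapdh lay above the control median, the fold change was 0.14 (SE 0.11), and it was -0.016 in the low-Xist libraries alone. Eno1 measured 1376 to 1799.5 CPM (median 1609) in INK-ATTAC libraries, against 1375 to 1863 CPM (median 1632) in controls, a fold change of -0.041 (SE 0.072). Pgam1 ran between 62.9 and 79.5 CPM in INK-ATTAC libraries, with a median of 71.6, and between 58.9 and 84.8 CPM in controls, with a median of 67.5, a fold change of 0.034 (SE 0.075). Pkm had a lowest, median and highest value of 1110.1, 1225 and 1536 CPM in INK-ATTAC libraries, against 959, 1211 and 1349 CPM in controls, with INK-ATTAC 3 highest and a fold change of 0.095 (SE 0.084).

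At the fate of pyruvate, Ldha had the second lowest p. Its libraries ran between 303 and 421 CPM in INK-ATTAC libraries, with a median of 365, and between 289 and 399 CPM in controls, with a median of 304, with 7 of 8 INK-ATTAC libraries above the control median. The log2 fold change was 0.18 (SE 0.093, unadjusted p = 0.0646), and 0.075 (SE 0.091) with muscle level in the fit. Ldhb measured 1043 to 1343 CPM (median 1169) in INK-ATTAC libraries, against 941 to 1339 CPM (median 1169) in controls, and the medians of its groups were alike, with a fold change of 0.037 (SE 0.078). Pdk2 had a lowest, median and highest value of 129, 133 and 159 CPM in INK-ATTAC libraries, against 103, 128.08 and 143 CPM in controls, a fold change of 0.14 (SE 0.080, unadjusted p = 0.104), and all 8 INK-ATTAC libraries were above the control median. Pdk4, the kinase induced by fasting and by fatty acids, ran between 5.24 and 8.33 CPM in INK-ATTAC libraries, with a median of 7.401, and between 6.29 and 8.11 CPM in controls, with a median of 7.75, a fold change of -0.11 (SE 0.12). Pfkfb3, the most glycolytic of the PFKFB enzymes and a gene that proliferating endothelium uses, measured 2.82 to 10.995 CPM (median 6.997) in INK-ATTAC libraries, against 5.42 to 12.96 CPM (median 7.902) in controls. The ranges overlapped, and its fold change of -0.33 (SE 0.25, unadjusted p = 0.195) became -0.0033 with muscle level in the fit. Pfkfb3 was lowest in INK-ATTAC 2 and highest in control 6. Endothelial marker level was also lowest in INK-ATTAC 2, at 4.00 log2 CPM, and highest in control 6, at 5.54 log2 CPM. The relation of Pfkfb3 to endothelial level was not tested.

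The remaining 13 of the 31, Gpi1, Tpi1, Pgk1, Eno2, Slc16a3, Pfkfb2, Pdk1, Pdk3, Pdha1, Pdhb, Dlat, Mpc1 and Mpc2, had log2 fold changes between -0.075 (Pdk3) and 0.11 (Pdk1), with the lowest unadjusted p at 0.246 for Tpi1. Of these, the subunits of the pyruvate dehydrogenase complex were among the closest to 0, with Pdha1 at -0.023 (SE 0.091), Pdhb at 0.043 (SE 0.080) and Dlat at 0.0041 (SE 0.075). The mitochondrial pyruvate carrier subunits gave 0.070 (SE 0.096) for Mpc1 and 0.064 (SE 0.13) for Mpc2. The authors' deposited table has 0 of the 31 at an adjusted p under 0.05 (lowest 0.653). It has 2 of the 31 higher and 1 lower at an unadjusted p under 0.05. In the authors' deposited table these are Pfkm at a log2 fold change of 0.38, Ldha at 0.22 and Pfkfb3 at -0.49. The share of all genes in that table at that p is not given here.

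Other genes of glucose metabolism were counted in the same fit, and none was called. Higher and lower give only the sign of the fold change. Of the 8 muscle-type genes 7 were higher and 1 lower, 3 of them at an unadjusted p under 0.05 and higher, and the median over the 8 was 0.44. These were Phkg1, the catalytic subunit of muscle phosphorylase kinase, at 0.98 (SE 0.32, unadjusted p = 0.00700), Pgam2 at 1.06 (SE 0.40, unadjusted p = 0.0164) and Pygm, muscle glycogen phosphorylase, at 0.29 (SE 0.11, unadjusted p = 0.0181). With skeletal muscle level in the fit, none of these 3 was at an unadjusted p under 0.05, with Phkg1 at 0.44 (SE 0.24, unadjusted p = 0.0799), Pgam2 at 0.24 (SE 0.14, unadjusted p = 0.113) and Pygm at 0.18 (SE 0.11, unadjusted p = 0.139). Of 16 genes of the tricarboxylic acid cycle 12 were higher and 4 lower, 1 at an unadjusted p under 0.05, which was Idh3g at 0.22 (SE 0.089). Of 14 glycogen genes 5 were higher and 9 lower, 2 of them at an unadjusted p under 0.05, Stbd1 at -0.48 (SE 0.22) and Ugp2 at -0.29 (SE 0.13), which was -0.18 without control 4. The pentose phosphate list had 4 higher and 5 lower of 9, with 1 at an unadjusted p under 0.05, the epimerase Rpe at -0.22 (SE 0.096). Of 8 other carriers 4 were higher and 4 lower, and of 12 other pyruvate genes 6 and 6, with 0 at an unadjusted p under 0.05 in either list. The 18 hypoxia genes outside glycolysis had 7 higher and 11 lower, with P4ha1 at -0.15 (SE 0.065) the 1 at an unadjusted p under 0.05. Among 17 regulators tested 9 were higher and 8 lower, 1 of them at an unadjusted p under 0.05, Hkdc1, a hexokinase-like gene, at 0.32 (SE 0.11). Of the near copies of glycolytic genes 7 were higher and 2 lower of 9 tested, 1 at an unadjusted p under 0.05, Aldoart1 at 0.27 (SE 0.13).

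To compare muscle-type with other isoforms, the log2 ratio of their CPM was formed within each library for 9 pairs. The other isoform is not a general one in every pair, since Aldoc is that of brain and of some retinal neurons. INK-ATTAC libraries were compared with controls over all 6435 splits, with adjustment over the 9. These ratios are not per length, so only their differences between libraries are read. No pair passed, and the groups overlapped in all 9. The ratio of Pgam2 to Pgam1 averaged 0.21 ± 0.82 in INK-ATTAC libraries (SD, n = 8) and -0.88 ± 0.94 in controls (SD, n = 7), a difference of 1.09 (SE 0.46, exact permutation test, p = 0.0314, adjusted p = 0.138). The ratio of Eno3 to Eno1 averaged -2.93 ± 0.78 in INK-ATTAC libraries (SD, n = 8) and -3.83 ± 1.11 in controls (SD, n = 7), a difference of 0.89 (SE 0.50, exact permutation test, p = 0.0918, adjusted p = 0.138). For both pairs the spread within a group was about as wide as the difference between groups. The ratio of Pfkm to Pfkl averaged -1.99 ± 0.33 in INK-ATTAC libraries (SD, n = 8) and -2.31 ± 0.33 in controls (SD, n = 7), a difference of 0.32 (SE 0.17, exact permutation test, p = 0.0859, adjusted p = 0.138), and that of Pfkm to Pfkp differed by 0.32 (SE 0.16, exact permutation test, p = 0.0667, adjusted p = 0.138). The ratio of Ldha to Ldhb differed by 0.15 (SE 0.075, exact permutation test, p = 0.0673, adjusted p = 0.138), and that of Pdk4 to Pdk2 by -0.27 (SE 0.12, exact permutation test, p = 0.0539, adjusted p = 0.138). The other 3 ratios moved less than their SE, with Slc2a4 to Slc2a1 at 0.079 (SE 0.13, exact permutation test, p = 0.556, adjusted p = 0.715), Hk2 to Hk1 at -0.042 (SE 0.21, exact permutation test, p = 0.846, adjusted p = 0.952) and Aldoa to Aldoc at -0.026 (SE 0.29, exact permutation test, p = 0.956, adjusted p = 0.956).

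**Figure D3:**
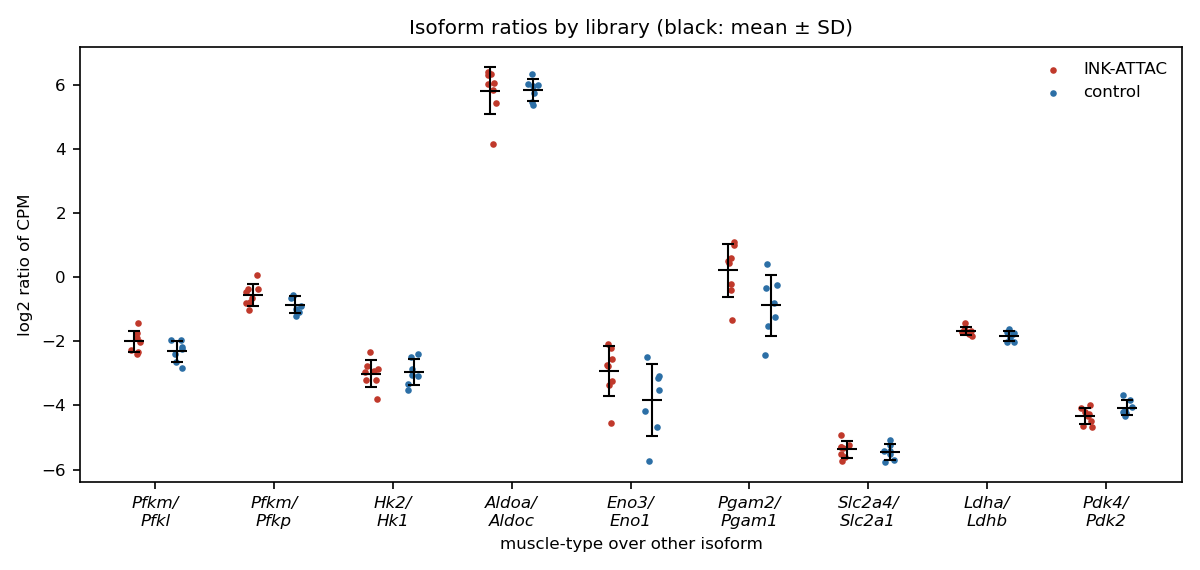
The log2 ratio of CPM of muscle-type over other isoform in each library for 9 pairs, with INK-ATTAC libraries in red, controls in blue and black bars for the mean ± SD. Pgam2 to Pgam1 and Eno3 to Eno1 spread over several log2 units within each group, while Ldha to Ldhb and Slc2a4 to Slc2a1 stay within about 1 unit.

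The wide spread of Eno3 and Pgam2 followed the level of skeletal muscle markers. All 21 of 21 muscle markers were detected and none was at 0 in every library. Their mean level was 4.48 to 6.58 log2 CPM in INK-ATTAC libraries and 3.27 to 6.03 in controls (difference 0.85, exact permutation test, p = 0.0808), and their summed level 849.9 to 3919 CPM in INK-ATTAC libraries and 386 to 2780.3 CPM in controls. Eno3 had a lowest, median and highest value of 64.4, 227 and 369 CPM in INK-ATTAC libraries, against 32.8, 132 and 335 CPM in controls. Control 2, with the lowest muscle level, had the lowest Eno3, and INK-ATTAC 1 and 2, with the highest muscle levels, had the highest. Pgam2 measured 25.04 to 154 CPM (median 102) in INK-ATTAC libraries, against 14.2 to 94.1 CPM (median 38.3) in controls, in nearly the same order. The fold change of INK-ATTAC over control was 0.66 (SE 0.41, unadjusted p = 0.125) for Eno3, and with muscle level in the fit they were -0.086 (SE 0.13) for Eno3 and 0.24 (SE 0.14) for Pgam2.

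Correlations with the levels of muscle, rod and RPE markers were computed over the 15 libraries for the 31 genes and 3 muscle-type partners, 102 relations with adjustment over all of them. With muscle level, Eno3 gave r = 0.98 and rho = 0.97 (permutation adjusted p = 5.1e-04 for both), and 0.96 without control 2 and control 7, the libraries farthest from the median. Pgam2 gave r = 0.97 and rho = 0.95 (permutation adjusted p = 5.1e-04 for both), and 0.96 without those libraries. Of the 31 genes, 2 passed with muscle level. These correlations were not computed over all genes, so no background share stands beside this count. Pfkm gave r = 0.80, rho = 0.82, permutation p = 1.7e-04 and 2.9e-04, adjusted p = 0.00434 and 0.00986, and r = 0.77 without those libraries. Pdhb, the beta subunit of pyruvate dehydrogenase, gave r = 0.74, rho = 0.68, permutation p = 0.00184 and 0.00742, adjusted p = 0.0268 and 0.0828, so that its rank correlation did not pass, and r = 0.72 without those libraries. The general partners did not pass with muscle level, with Eno1 at r = -0.030 and rho = 0.0071, Pgam1 at 0.26 and 0.33 and Pfkl at -0.25 and -0.28, nor did Slc2a4, at r = 0.013 and rho = 0.13 (permutation adjusted p from 0.548 to 0.995). Within the groups the relation of Pfkm was r = 0.84 in INK-ATTAC libraries and 0.67 in controls, and that of Eno3 0.96 in INK-ATTAC libraries and 0.98 in controls.

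**Figure D4:**
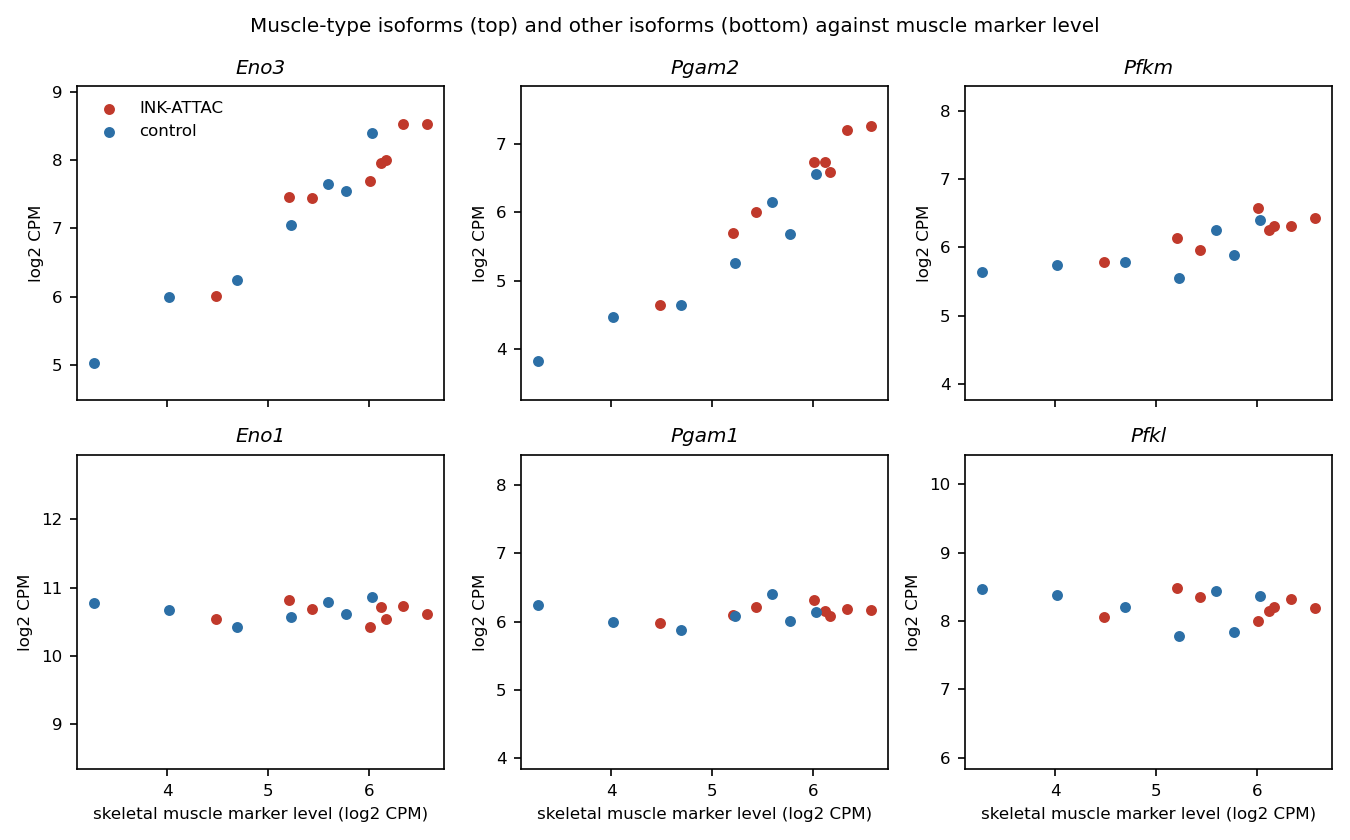
Log2 CPM of 3 muscle-type isoforms (top) and their general partners (bottom) against the mean log2 CPM of 21 skeletal muscle markers in each library, with INK-ATTAC libraries in red and controls in blue, and each panel spanning the same number of log2 units. Eno3 and Pgam2 climb along the muscle level, Pfkm climbs less steeply, and the correlations of Eno1 (r = -0.030), Pgam1 (0.26) and Pfkl (-0.25) did not pass.

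In an edgeR fit of muscle level with the group as a term, 138 genes were called higher with more muscle level (0.767%) and 2 lower (0.0111%), and the markers that define the level are among the genes tested. Eno3 rose by 1.11 (SE 0.076, adjusted p = 4.7e-07) log2 units per log2 unit of muscle level, and Pgam2 by 1.04 (SE 0.081, adjusted p = 7.3e-07). Phkg1 rose by 0.65 (SE 0.13, adjusted p = 0.0184) and Pfkfb1, the muscle and liver PFKFB, by 0.63 (SE 0.14, adjusted p = 0.0379). None of the 31 was called. Pfkm came nearest, at 0.25 (SE 0.060, adjusted p = 0.0780), and at an unadjusted p under 0.05 there were 8 higher (background 5.66%) and 1 lower (background 6.13%). The 8 were Pfkm, Pdhb, Mpc2, Ldha, Tpi1, Gapdh, Mpc1 and Aldoa, with slopes between 0.11 and 0.25, and the lower gene was Pfkfb3 at -0.38 (SE 0.13, adjusted p = 0.307). Endothelial level was not in this fit. Without INK-ATTAC 7 the 9 genes at an unadjusted p under 0.05 became 3, where 1372 of 17880 genes tested were at that p. Without control 1 they became 5, where 1782 of 18192 were. Over all libraries it was 2121 of 17991.

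With the level of RPE markers, 3 of the 31 passed by r, all 3 upward, and 5 passed with RLE scaling and 6 as residuals from the group means. The share of all genes that would pass with RPE level was not computed, so these counts have no background. Pdk4 gave r = 0.83, rho = 0.75, permutation p = 1.0e-04 and 0.00164, adjusted p = 0.00340 and 0.0279, Pgk1, the ATP-forming kinase after Gapdh, r = 0.80, rho = 0.73, permutation p = 4.2e-04 and 0.00316, adjusted p = 0.00714 and 0.0460, and Eno1 r = 0.80, rho = 0.79, permutation p = 4.0e-04 and 8.1e-04, adjusted p = 0.00714 and 0.0184. Ldhb gave r = 0.70 and rho = 0.78, permutation adjusted p = 0.051 and 0.0184, so that its rank correlation alone passed. Without INK-ATTAC 6 and INK-ATTAC 7, the libraries lowest in RPE markers, r was 0.67 for Pdk4, 0.67 for Pgk1, 0.74 for Eno1 and 0.66 for Ldhb. With the level of rod markers 0 of the 31 passed, the lowest permutation adjusted p of any of the named isoforms being 0.123 for Hk2 (r = 0.61 and rho = 0.48, adjusted p = 0.263 for the rank correlation). Marker levels and gene values come from the same libraries and the same scaling.

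Libraries also fell into 8 with high Xist, the RNA of the inactive X chromosome, and almost no Y-linked RNA, and 7 with low Xist and Y-linked RNA. There were 4 INK-ATTAC and 4 control libraries of high Xist, and 4 INK-ATTAC and 3 control libraries of low Xist. The comparison of these libraries, with the group as a term, was added after the data were seen. Of the 31 genes, 27 had a log2 fold change of high over low Xist below 0, against 47% of all genes, with a median of -0.17 for the 31. At an unadjusted p under 0.05, 14 were lower, against 5.25% of all genes, and 0 higher, against 5.09%. The classes follow the library numbers, with INK-ATTAC 5 to 8 and controls 4 to 7 high and the others low, so the class and anything else that goes with the numbers cannot be told apart. With the number as a block and without INK-ATTAC 8, number 4 alone has both classes. In that fit 0 of the 31 were lower at an unadjusted p under 0.05, where 382 of 17872 genes were, and 22 of the 31 were below 0 with a median of -0.19. None of the 31 passed after adjustment over all genes in edgeR, which called 13 genes higher (0.0723%) and 19 lower (0.106%). DESeq2 called 3 of the 31, all lower, where it called 0.611% of genes lower.

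Aldoa had the lowest p. It ranged from 3421 to 4179 CPM (median 3642) in high-Xist libraries, against 3998 to 5133 CPM (median 4613) in low-Xist libraries, a log2 fold change of -0.27 (SE 0.056, unadjusted p = 1.6e-04) with an adjusted p of 0.0717. Slc2a1 ranged from 608 to 727 CPM (median 676) in high-Xist libraries, against 714 to 941 CPM (median 823) in low-Xist libraries, a fold change of -0.28 (SE 0.068, unadjusted p = 7.5e-04). Ldha ranged from 289 to 359 CPM (median 305) in high-Xist libraries, against 289.7 to 421 CPM (median 395) in low-Xist libraries, a fold change of -0.27 (SE 0.068, unadjusted p = 9.8e-04). Aldoa, Slc2a1 and Ldha were the genes called by DESeq2, at adjusted p = 0.00776, 0.0275 and 0.0324 in that order, and the ranges of the Xist classes overlapped for each of them. Gapdh was at -0.30 (SE 0.082, unadjusted p = 0.00229), Eno1 at -0.20 (SE 0.054, unadjusted p = 0.00213), Tpi1 at -0.23 (SE 0.066, unadjusted p = 0.00324), Pfkp at -0.26 (SE 0.078, unadjusted p = 0.00404) and Pkm at -0.22 (SE 0.067, unadjusted p = 0.00461). The other 6 of the 14 were Hk1, Pfkl, Ldhb, Pgk1, Pdk2 and Gpi1, with fold changes from -0.25 to -0.17. The 4 genes above 0 were Pfkfb3 at 0.44 (SE 0.23, unadjusted p = 0.0776), Hk2, Dlat and Eno2.

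**Figure D5:**
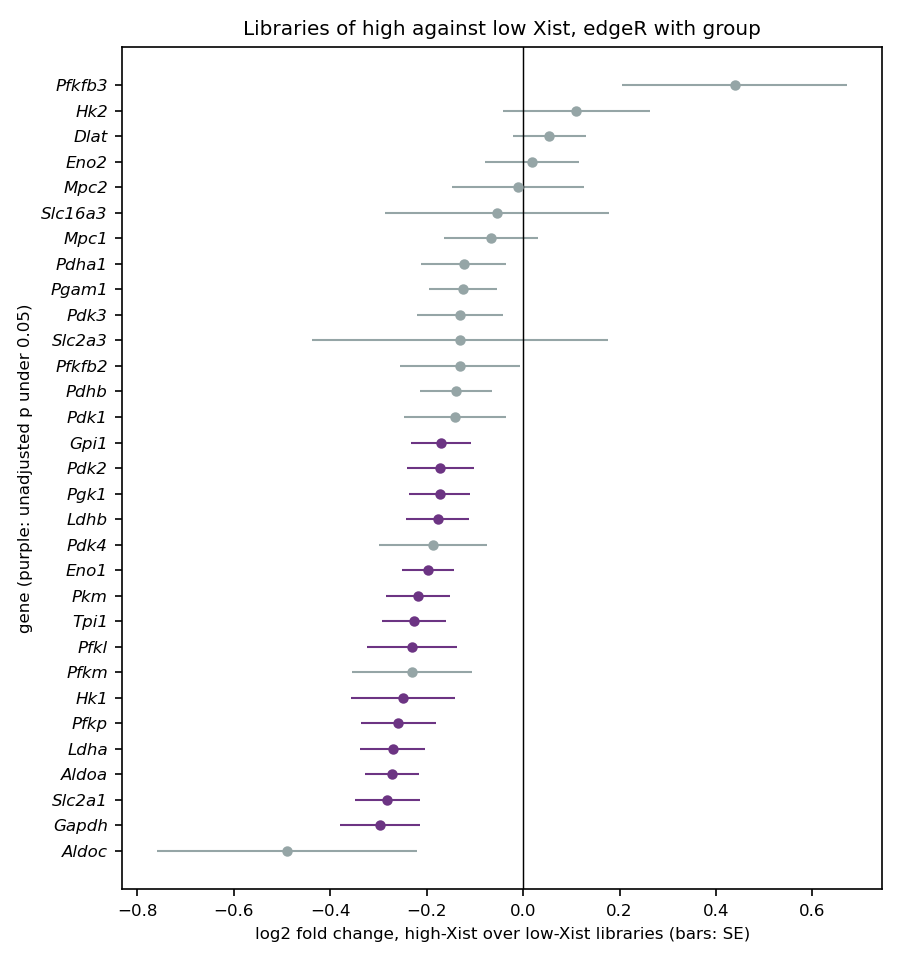
The log2 fold change of high-Xist over low-Xist libraries in edgeR with the group as a term, with bars of 1 SE, for the 31 genes. Purple marks the 14 at an unadjusted p under 0.05, all of them below 0, from Gapdh at -0.30 to Gpi1 at -0.17.

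The direction was the same within each group for the leading genes. For Aldoa the high-Xist minus low-Xist difference in mean log2 CPM was -0.24 within INK-ATTAC libraries and -0.31 within controls, for Slc2a1 -0.21 within INK-ATTAC libraries and -0.36 within controls, and for Ldha -0.27 within INK-ATTAC libraries and -0.26 within controls. The 3 X-linked genes of the group, Pgk1 at -0.17, Pdk3 at -0.13 and Pdha1 at -0.12, lay in the range of the autosomal ones. All 16 tricarboxylic acid cycle genes were lower with high Xist too, 10 at an unadjusted p under 0.05, with a median of -0.20, among them Fh1 at -0.27 (SE 0.066, unadjusted p = 9.2e-04) and Mdh2 at -0.22 (SE 0.058, unadjusted p = 0.00160). Of the 18 hypoxia genes outside glycolysis 8 were higher and 10 lower, 2 higher at an unadjusted p under 0.05, among them Adm, adrenomedullin, at 0.43 (SE 0.12, unadjusted p = 0.00195). Bsg, basigin, which brings lactate carriers to the cell surface, was at -0.23 (SE 0.068, unadjusted p = 0.00314).

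The ranges of marker levels overlapped between the Xist classes, which does not make the levels alike. RPE markers lay between 10.04 and 10.26 log2 CPM in high-Xist libraries and between 10.16 and 10.35 in low-Xist libraries, muscle markers between 4.02 and 6.17 in high-Xist and 3.27 and 6.58 in low-Xist libraries, and lens markers between -1.25 and 3.37 in high-Xist and -1.91 and 6.12 in low-Xist libraries. Among low-Xist libraries lens level was 3.69, 1.81, 6.12 and 3.96 in INK-ATTAC 1 to 4. It was 1.59, -1.91 and 3.28 in controls 1 to 3. Among high-Xist libraries it was 1.11, -1.04, -1.25 and 3.37 in INK-ATTAC 5 to 8. It was -0.58, -0.55, 0.63 and -0.047 in controls 4 to 7. Endothelial markers lay between 4.19 and 5.54 in high-Xist and between 4.00 and 5.04 in low-Xist libraries. With RPE level in the fit 12 of the 31 were lower at an unadjusted p under 0.05, where 796 of 17991 genes were. With muscle level it was 15, where 899 of 17991 genes were. Leaving out each library in turn gave 11 to 16, where 683 to 1074 of all genes were lower at that p. Lens and endothelial levels were not put in the fit, and their part was not tested. Whether the group difference itself depended on the Xist class was tested as an interaction, the difference in high-Xist minus that in low-Xist libraries, which called 0 of 17991 genes in edgeR (858 at an unadjusted p under 0.05) and 12 in DESeq2, none of them among the 31. Of the 31, Slc16a3 at 0.99 (SE 0.41, unadjusted p = 0.0267, adjusted p = 0.876) and Pgam1 at 0.28 (SE 0.13, unadjusted p = 0.0460) were at an unadjusted p under 0.05, against 1.8% of all genes in that direction and 2.97% in the other.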

How the data were processed

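Groups were taken from the sample titles, whose numbers were not treated as pairs. The submitters' processing notes name DRAGEN, bcl2fastq, limma and edgeR with GRCm38, and leave their versions, the counting settings and the strand unstated. The authors deposited raw read counts per gene, 40757 entries of which 276 repeats were collapsed to leave 40481 genes. Per the file headers the authors' comparison table gives log2 CPM and log2 fold changes, p-values and adjusted p-values, and test statistics used only as scores of that table.

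Counts were scaled by TMM and filtered with filterByExpr, leaving 17991 genes, and tested with edgeR 4.0.16 (R 4.3.3) quasi-likelihood, two-sided, adjusted by Benjamini-Hochberg over all genes at 0.05. SE is the absolute log2 fold change over the square root of F. TPM used exon-union lengths of GENCODE M21. Isoform ratios used the exact permutation test over 6435 splits and correlations 100000 permutations. No 2 libraries of a group agreed within sampling noise (lowest chi-square per gene 29.9). In data simulated for INK-ATTAC against control (17836 genes), 10 of 50 genes changed 1.5-fold, 40 of 50 changed 2-fold and 50 of 50 changed 4-fold were called, with 8 false calls. Every simulated gene had the same coefficient of biological variation, 0.265, and libraries did not differ in tissue content or Xist class. These rates therefore need not hold for a given gene of the real data.

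The members and lists were chosen with earlier results of these data known, and the comparisons by muscle level and by Xist class, with RPE level as a covariate, were added after seeing the data. Values by library are given for isoform pairs, the 6 members of lowest p and the 6 of highest level per length, and up to 3 genes of lowest p for other lists. Alternatives were DESeq2 1.42.0, RLE scaling, other filters, limma-voom (limma 3.58.1), covariates, Xist classes alone, a replicate block and leaving out each library.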

Additional observations from a re-analysis of the deposited data

Results flagged for a closer look

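Of 96 groups of libraries examined for a value far from the rest of its group, 9 held such a value, and chance alone marks about 1 group in 20. INK-ATTAC 3 gave 5 of them. In that library Aldoc had 230.3 CPM, where the nearest INK-ATTAC library had 82.7 CPM, and the log2 ratio of Aldoa to Aldoc was 4.16, with the nearest at 5.42. Hk1 had 170.3 CPM there with the nearest at 128.02 CPM, Pkm 1536 CPM with the nearest at 1254 CPM, and Pdk1 19.3 CPM with the nearest at 14.1 CPM. INK-ATTAC 3 also had the highest rod level of its group (6.02 log2 CPM) and the highest lens level of all libraries (6.12 log2 CPM). Over all 15 libraries r with rod level was 0.44 for Aldoc, 0.0046 for Hk1, 0.15 for Pkm and 0.17 for Pdk1, and none passed. The part of rod and lens level in the values of INK-ATTAC 3 was not tested.

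Control 3 gave 2 more, Aldoc at 111.7 CPM with the nearest control at 77.9 CPM and Slc16a3 at 7.98 CPM with the nearest at 4.99 CPM, and it had the highest rod level of the controls (6.14 log2 CPM). Pdk3 in INK-ATTAC 4 had 32.8 CPM with the nearest INK-ATTAC library at 26.8 CPM. Phkg1 in control 1 had 3.53 CPM with the nearest control at 1.92 CPM, and control 1 had the highest muscle level of the controls (6.03 log2 CPM).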

How the results depend on the processing

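The count of genes called for INK-ATTAC against control was 6 with DESeq2 and 2 with limma-voom and quality weights, against 0 in edgeR. The count of the 31 genes at an unadjusted p under 0.05 was 1 in edgeR, where that over all genes was 745 of 17991 tested. It was 2 with quality weights (1068 of 17991 genes tested), 0 with muscle level (867), 2 with Xist class (764) and 4 with RPE level (1470). It was 0 in low-Xist (909 of 18141) and 3 in high-Xist libraries alone (730 of 18143). When each library was left out it was 0 to 3, where the count over all genes ran from 561 without control 4 to 1123 without control 3. Muscle level gave 304 genes called with DESeq2 and 253 with quality weights against 140, of the 31 genes 1 with DESeq2 and 2 with quality weights against 0. Without each library 0 to 1 of the 31 were called and 3 to 11 were at an unadjusted p under 0.05. Over all genes those fits had 105 to 156 called and 1372 to 2805 at an unadjusted p under 0.05. Without the 2 libraries farthest from the median muscle level, 1 of the 31 followed muscle level by correlation, against 2 over all libraries. With the same libraries left out 5 followed RPE level, against 3 over all libraries. The count without the libraries lowest in RPE markers was not made, nor were these correlations counted over all genes. For Xist class the genes called were 183 with DESeq2, 206 with quality weights, 18 with RPE level and 15 to 38 without each library, against 32, and the 31 genes had 3 with DESeq2, 1 with quality weights and 0 to 1 without each library.

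The direction turned for the median over the 31 genes in low-Xist libraries (-0.011), for the log2 fold change of Gapdh in low-Xist libraries (-0.016), of Eno3 with muscle level (-0.086) and of Aldoc without INK-ATTAC 3 (-0.10 to 0.45 over libraries left out). It also turned for the ratio of Hk2 to Hk1 (0.12 in high-Xist libraries, -0.14 to 0.069 without each library), of Aldoa to Aldoc (0.11 in high-Xist libraries, -0.11 to 0.21), of Slc2a4 to Slc2a1 (-0.021 in low-Xist libraries), and for the correlation of Slc2a4 with muscle level within groups (-0.11). By over 1.5 times, with no change of direction, the fold change moved for Aldoa without INK-ATTAC 2 (0.072), Tpi1 without INK-ATTAC 1 (0.055), Gapdh without control 3 (0.23) and control 5 (0.086), Pdk2 without control 5 (0.085), Pfkfb3 without control 6 (-0.22), Pdk4 without INK-ATTAC 6 (-0.056) and INK-ATTAC 7 (-0.064), Aldoc without control 3 (0.45), Eno3 without control 1 (1.00) and Ugp2 without control 4 (-0.18). So did the ratio of Eno3 to Eno1 without control 2 (0.58), that of Slc2a4 to Slc2a1 (0.014 to 0.14 over libraries left out), and the slope of Aldoa on muscle level without control 2 (0.18). The causes were not tested. The correlation of deviations between libraries of the same title number was -0.10 to 0.29, and 1 control correlated best with its own number. By the numbers of the count columns it was -0.15 to 0.23. Whether libraries of a number share an origin or a batch was not tested. A replicate block, without INK-ATTAC 8, gave 2 of the 31 genes at an unadjusted p under 0.05 by group, where 734 of 17872 genes were. By muscle level 1 of the 31 was called (Pfkfb3, slope -0.56), where 151 of 17872 genes were. For Xist class 5 genes were called, and 0 of the 31 were lower at an unadjusted p under 0.05, where 382 of 17872 genes were.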
